A study of Rattus norvegicus with 2 samples.

Results

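The genes of polyamine synthesis and breakdown were followed in myocardium of spontaneously hypertensive rats (SHR), which become hypertensive as adults without surgery or drugs. The 10 genes were chosen by name, with earlier results of these data known, and all 10 were among the 13706 protein-coding genes with reads in either library. Treated rats were dosed intragastrically with the herbal Jiangya Kangxian formula (9.6 g/kg, the high dose, abbreviated KXH), and controls with distilled water, both for 12 weeks. There was 1 library of total RNA per group, with 14.1 M reads (M, 1000000) on protein-coding genes with KXH and 15.1 M with water, and the labels give neither the age and sex of the rats nor whether RNA was pooled. All animals shared the hypertensive strain, and no normotensive group is among these libraries. Cardiomyocyte genes were abundant, as the tissue label says: Tnni3 was at 6226 RPKM with KXH and 6050 RPKM with water, and Actc1 at 10080 and 8890 RPKM in the same order, where RPKM is reads per kilobase of transcript per 1000000 reads.

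Polyamines are small positively charged metabolites that bind nucleic acids, feed the hypusine modification of translation factor eIF5A and block inward-rectifier potassium channels from inside the heart cell. Putrescine is made from ornithine by ornithine decarboxylase, and aminopropyl groups from decarboxylated S-adenosylmethionine are then added to give spermidine and spermine. Acetylation and oxidation run the pathway backwards, and antizymes, whose translation polyamines promote through a ribosomal frameshift, send ornithine decarboxylase to the proteasome. In rodents, cardiac hypertrophy is known to be accompanied by a rise of ornithine decarboxylase and polyamines.

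In these libraries a single polyamine gene stood far from the others. Amd1, which encodes the S-adenosylmethionine decarboxylase that supplies the aminopropyl donor, was at 49.3 RPKM with KXH and 87.3 RPKM with water, 1.77-fold lower. The spermine oxidase gene Smox was 1.37-fold lower, and 7 genes lay within 1.2-fold of the water level. The remaining gene, Srm, rested on 44 reads in all. With 1 library per group no test between the treatments is possible. The range in parentheses after a ratio or fold is its 95% exact interval, which covers counting error only, so animal-to-animal variation is in none of them, and "higher" and "lower" describe these libraries.

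**Figure D1:**
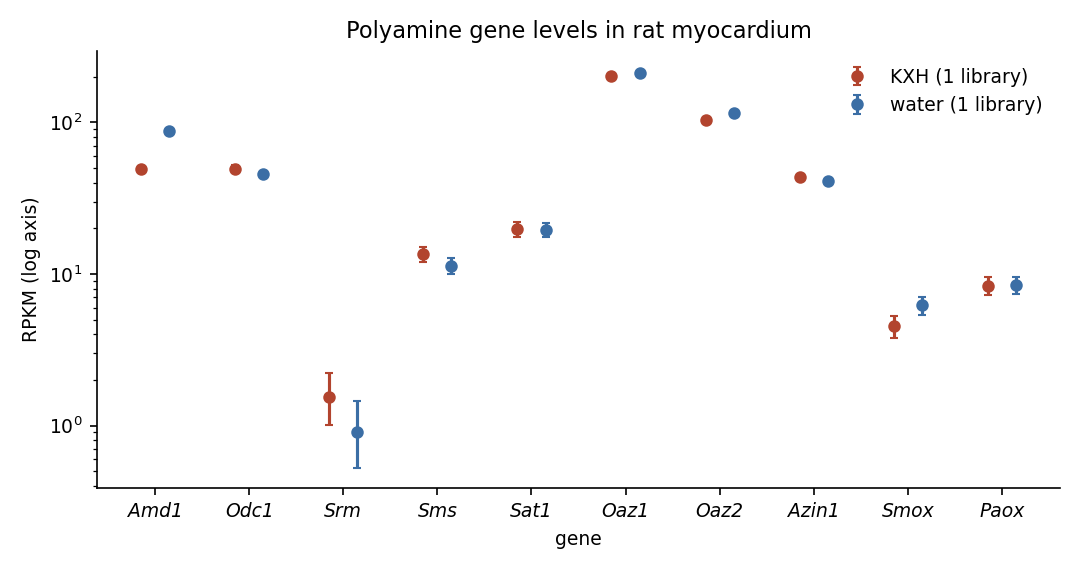
Level of each polyamine gene in the libraries, KXH left and water right in each pair of points, in RPKM on a log axis, with bars for 95% exact Poisson intervals (counting error; hidden by the point where short). Amd1, at 49.3 and 87.3 RPKM, has the points farthest apart, and the bars of Amd1, Oaz2 and Smox do not overlap. Oaz1, at 203 and 212 RPKM, is the most abundant in both libraries.

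Synthesis begins with Odc1, ornithine decarboxylase, which makes putrescine. It was at 49.6 RPKM with KXH (1676 reads) and 45.6 RPKM with water (1658 reads), a ratio of 1.09 (1.01 to 1.16). The aminopropyl donor is supplied by Amd1, with 2197 reads with KXH and 4179 with water, 1.77-fold lower (1.68 to 1.87). Reads covered 99.6% of the listed 3169 bases of Amd1 with KXH and 99.4% with water, by the authors' coverage value, so the covered part of the transcript was nearly the same. The 2 decarboxylase genes thus lay on opposite sides of a ratio of 1.

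The aminopropyltransferases take up that donor. Srm, spermidine synthase, had 27 reads with KXH and 17 with water, which is 1.54 and 0.901 RPKM in that order. Its ratio was 1.71 (0.897 to 3.34), and at this depth a difference was not detectable. Sms, spermine synthase, was at 13.5 RPKM with KXH and 11.3 RPKM with water, a ratio of 1.199 (1.02 to 1.42). Summed over Odc1, Srm and Sms, the level was 64.6 RPKM with KXH and 57.8 RPKM with water, a ratio of 1.12. With Amd1 added the sums were 113.9 and 145.2 RPKM in the same order, a ratio of 0.785, so Amd1 alone set the direction of the summed synthesis genes.

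The 3 breakdown genes were at 4.51 to 19.7 RPKM with KXH and 6.19 to 19.6 RPKM with water. Sat1, the spermidine and spermine acetyltransferase that starts back-conversion and export, was at 19.7 RPKM with KXH and 19.6 RPKM with water, a ratio of 1.01 (0.861 to 1.17). Paox, the peroxisomal oxidase of acetylated polyamines, was at 8.36 RPKM with KXH and 8.41 RPKM with water, a ratio of 0.994 (0.820 to 1.204). The mRNA of these genes of the acetylation route was therefore at nearly the same level in both libraries, and enzyme levels were not measured. Smox, which oxidises spermine directly and releases hydrogen peroxide, was at 4.51 RPKM with KXH (143 reads) and 6.19 RPKM with water (211 reads), 1.37-fold lower (1.11 to 1.71).

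Of the regulators of ornithine decarboxylase protein, the antizymes were the most abundant members. Oaz1, the main antizyme, was at 203 RPKM with KXH and 212 RPKM with water, a ratio of 0.959 (0.913 to 1.01). Oaz2, its close relative, was at 103.6 RPKM with KXH and 114.7 RPKM with water, 1.11-fold lower (1.05 to 1.17). Azin1, an inactive homologue of the decarboxylase that binds antizymes and so frees the enzyme, was at 43.5 RPKM with KXH and 40.7 RPKM with water, a ratio of 1.07 (1.01 to 1.13). Both antizymes had ratios below 1, while their inhibitor and their target had ratios above 1, all by small amounts.

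The RefSeq start regions of 9 of the 10 genes were read from GRCr8 (the submitters' notes name rn6, and the sequence serves only to show the genes). The 250 bases before the start are printed for Amd1 and Smox, the genes at least 1.2-fold lower with an interval below 1, and for Odc1, the decarboxylase whose level was not lower. They are given 5′ to 3′ on the gene's strand, with capitals for matches on either strand to 5 motifs. These are the TATA box motif TATAAA, the E-box motif CACGTG, the GC box motif GGGCGG, the CCAAT motif, and TGACG, the core of the cyclic AMP response element. No matches overlap in these windows.
Amd1, chr20:45265983-45266232, minus strand: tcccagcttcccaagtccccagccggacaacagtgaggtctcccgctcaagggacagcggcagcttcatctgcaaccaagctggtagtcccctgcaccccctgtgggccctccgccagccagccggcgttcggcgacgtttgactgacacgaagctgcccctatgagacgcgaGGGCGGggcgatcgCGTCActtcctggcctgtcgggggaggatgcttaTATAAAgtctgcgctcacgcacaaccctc
Odc1, chr6:46058415-46058664, plus strand: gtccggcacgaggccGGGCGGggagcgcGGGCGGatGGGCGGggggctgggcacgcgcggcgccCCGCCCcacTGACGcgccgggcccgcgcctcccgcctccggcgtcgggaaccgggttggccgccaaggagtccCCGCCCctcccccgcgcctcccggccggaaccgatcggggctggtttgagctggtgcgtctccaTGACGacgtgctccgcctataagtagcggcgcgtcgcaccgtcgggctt
Smox, chr3:139204351-139204600, plus strand: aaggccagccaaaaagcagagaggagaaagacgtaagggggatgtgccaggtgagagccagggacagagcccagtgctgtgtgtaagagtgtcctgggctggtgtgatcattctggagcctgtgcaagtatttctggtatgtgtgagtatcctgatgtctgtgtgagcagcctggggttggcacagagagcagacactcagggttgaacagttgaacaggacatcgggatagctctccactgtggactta

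The Amd1 window held a TATAAA starting 29 bases before the start, a GC box and a TGACG core. The Odc1 window held 5 GC boxes and 2 TGACG cores with no TATAAA, and the Smox window held none of the 5 motifs. Among the 9 genes, TATAAA occurred for Amd1 and Oaz1, CACGTG, the site of Myc with Max, for Srm and Oaz1, and CCAAT for Srm and Oaz1. The GC box occurred in 8 of 9 and the TGACG core in 5. Over 33469 rat start regions of this length the shares were 12.9% for TATAAA, 5.59% for CACGTG, 30.5% for the GC box, 34.0% for CCAAT and 18.2% for TGACG. These regions were not matched to the 9 genes in base composition or level, so the shares are no test of enrichment. Base composition differed among the windows, with 64.0% G and C for Amd1, 78.0% for Odc1 and 53.2% for Smox beside a median of 51.2% over all regions. A match is a description of letters and not a shown binding site.

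**Figure D2:**
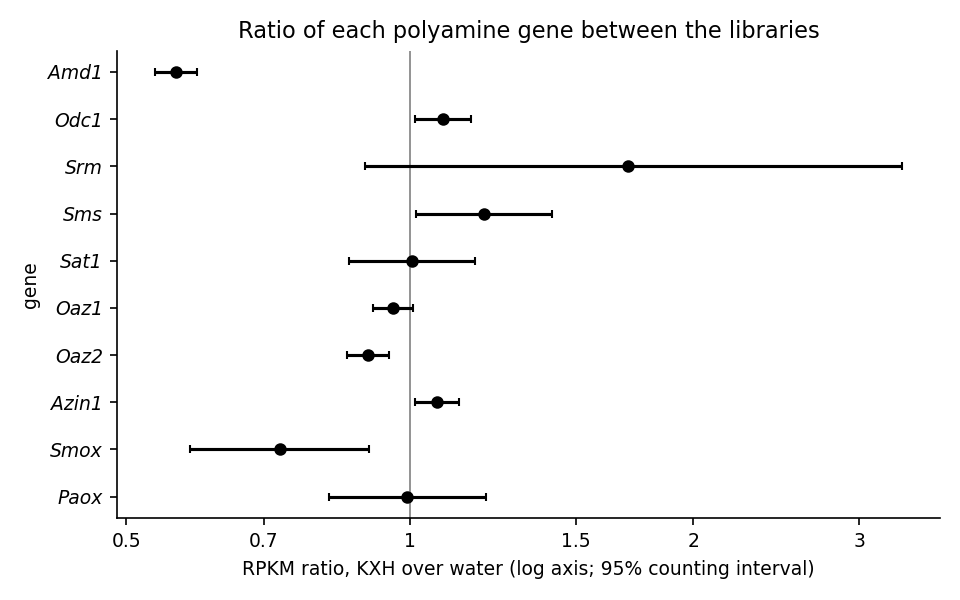
Ratio of RPKM with KXH over that with water for each polyamine gene, on a log axis, with bars for 95% exact intervals of counting error. Amd1, at 0.565, and Smox, at 0.728, lie farthest to the left, and the widest bar is that of Srm, with 44 reads.

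Of the 10 genes, 2 were at least 1.2-fold lower (Amd1 and Smox) and 1 at least 1.2-fold higher (Srm). Over the 10467 protein-coding genes averaging at least 1 RPKM, a filter that all 10 passed, 12.1% were at least 1.2-fold lower and 7.5% at least 1.2-fold higher. Sms lay so close to this limit that a small rescaling of the libraries took it past, to a ratio of 1.21 with median-of-ratios size factors. At 1.1-fold the counts were 3 lower and 2 higher, beside 25.3% and 18.5% of all genes. Counting intervals lay below 1 for 3 genes (Amd1, Oaz2 and Smox) and above 1 for 3 (Odc1, Sms and Azin1), against 16.3% and 11.2% of all genes. Whether an interval leaves out 1 depends on a gene's reads, and all genes were not matched to the members for reads. Odc1 and Azin1, with 3334 and 5331 reads in all, had intervals above 1 at ratios of only 1.09 and 1.07. The same limit holds for every such share given below. A 1.5-fold lower level was reached by Amd1 and a 1.5-fold higher one by Srm, as in 2.48% and 1.39% of all genes. Srm was at 0.901 RPKM with water and passed the filter only through its KXH level. Its place among the higher genes is therefore partly set by the filter. The median log2 ratio of the 10 genes was -0.00035 beside -0.02 over all genes. Because the genes were chosen with these values known, the counts describe the list and carry no test.

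Amd1 stood at the low end of the genes with many reads. Among the 4619 genes whose reads in both libraries together reached 1000, Amd1 had the 4th lowest ratio, after the retinol saturase gene Retsat (0.441), the glycoprotein gene Gpnmb (0.508) and the fatty acid transporter gene Cd36 (0.546). Among the 7824 genes averaging at least 5 RPKM with 200 reads or more, Amd1 ranked 10th from the lowest. Among all 10467 genes, those with few reads included, it ranked 110th from the lowest. Smox ranked 471st from the lowest and Srm 60th from the highest. Srm is in this set only through its KXH level, so its rank is partly set by the filter.

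**Figure D3:**
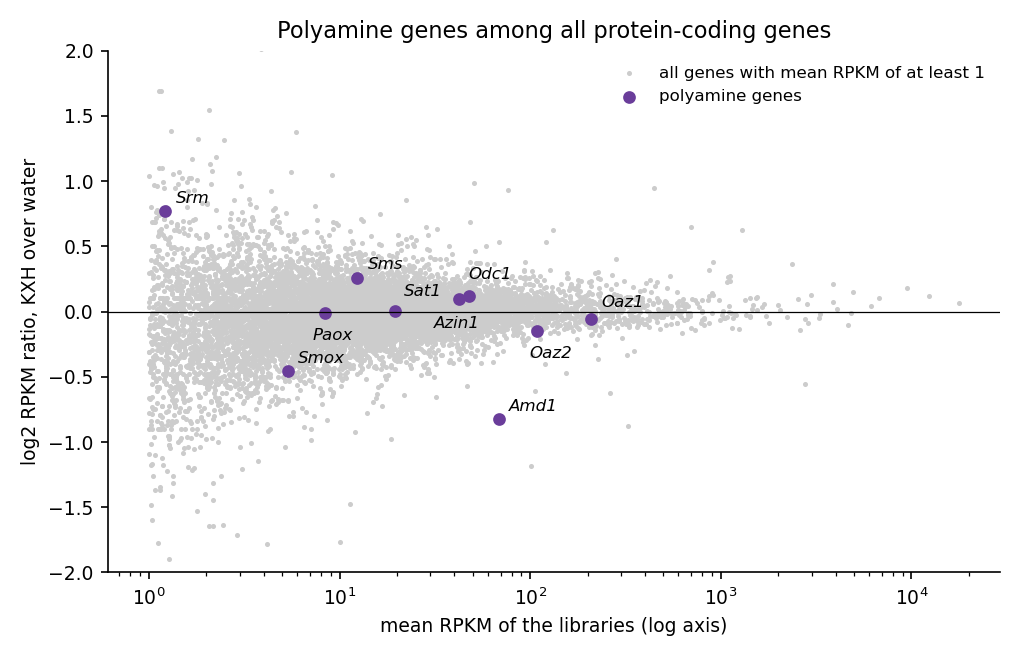
Log2 ratio of KXH over water against the mean RPKM of both libraries (log axis) for genes averaging at least 1 RPKM (grey), with the polyamine genes in purple. The axis stops at log2 ratios of -2 and 2, beyond which 5 genes with a finite ratio lie. Amd1 sits below the grey band at its level, whereas Srm, with a log2 ratio of 0.77, lies where low levels spread the band.

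Ratios between members within a library do not depend on how the libraries are scaled. Amd1 was at 0.995 times the RPKM of Odc1 with KXH and 1.91 times with water, which is 1.92-fold lower (1.76 to 2.10). Relative to Sms, the Amd1 level was 3.65 times with KXH and 7.74 times with water, 2.12-fold lower (1.78 to 2.53). Against Sat1 the values were 2.50 times with KXH and 4.46 times with water, 1.78-fold lower (1.51 to 2.10). The ratio of Amd1 to Srm was 3.02-fold lower, with a wide interval of 1.58 to 5.92. These 4 ratios share Amd1 and are not separate evidence.

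The other 6 ratios of ratios were closer to 1. Oaz1 stood at 4.10 times the RPKM of Odc1 with KXH and 4.64 times with water, 1.13-fold lower (1.04 to 1.23). Smox stood at 0.539 times the RPKM of Paox with KXH and 0.736 times with water, 1.36-fold lower (1.02 to 1.83). The intervals of Oaz2 to Oaz1, Azin1 to Odc1, Sat1 to Odc1 and Srm to Sms included 1. Azin1 to Odc1 was the steadiest, at 0.879 times with KXH and 0.893 times with water.

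**Figure D4:**
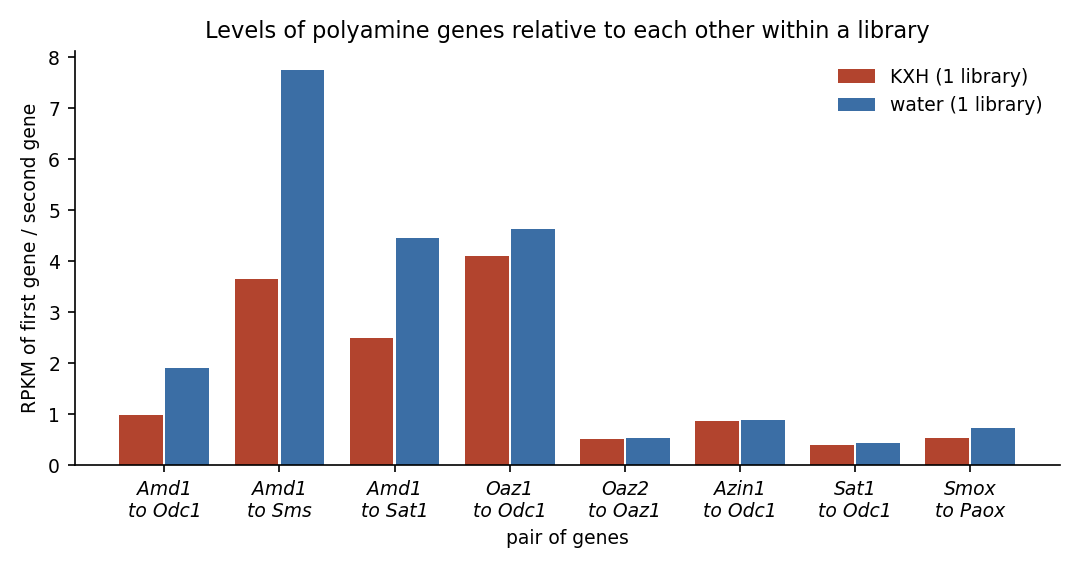
RPKM of the first gene divided by that of the second within each library, for 8 of the 10 pairs compared (those with Srm are left out for their few reads), with the KXH library left and the water library right in each pair of bars. Amd1 is about level with Odc1 with KXH (0.995) and above it with water (1.91). The bars have no error bars, and the intervals of the ratios of ratios are in the text.

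The order of levels was alike in both libraries but for Amd1. In the KXH library it ran Oaz1, Oaz2, Odc1, Amd1, Azin1, Sat1, Sms, Paox, Smox and Srm, and Amd1 and Odc1 did not differ beyond counting error. In the water library Amd1 came 3rd, above Odc1, and every neighbouring pair was apart by the counting intervals. Compared with all genes averaging at least 1 RPKM, Oaz1 was above 96.7% of them with KXH and 96.9% with water. Srm was above 5.43% and 0.277% of them in the same order. Srm lay at the edge of this filter with 27 and 17 reads, and the interval of its ratio included 1.

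Several of these genes have processed copies or shared names that bear on their counts. In the RefSeq table of the GRCr8 assembly, 10 pseudogenes are named for Odc1, 3 for Amd1 and 2 each for Sms and Oaz1, and reads that match a copy equally well can be lost when only unique reads are kept. The same counting applied to both libraries, and its part in the levels was not tested. Odc1 is also an older name of Slc25a21 and Sat1 one of Slc38a1, but both of those genes have rows of their own in the tables, with other lengths.

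Genes around the pathway were examined as a list of 57 in 7 groups, of which 54 had reads and 42 a mean of at least 1 RPKM. Of these 42, 18 had a ratio above 1 and 24 below 1, against 45.0% and 55.0% of all genes, and the counting interval lay above 1 for 5 and below 1 for 4, beside 11.2% and 16.3% of all genes. Among these 5, Cbs passed the filter only through its KXH level. The median log2 ratio was -0.03.

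Genes of methionine and S-adenosylmethionine supply, the step before Amd1, included Mat2a, the methionine adenosyltransferase outside liver, at 87.3 RPKM with KXH and 79.0 RPKM with water, a ratio of 1.104 (1.03 to 1.18). Cbs, cystathionine beta-synthase, was at 1.61 RPKM with KXH and 0.998 RPKM with water, a ratio of 1.61 (1.05 to 2.50). Bhmt, which remethylates homocysteine, had 20 reads with KXH and 37 with water, and its interval included 1. Ahcyl2 had a ratio of 0.930, also with 1 in its interval. Of the 10 genes of this group averaging at least 1 RPKM, 2 had intervals above 1 and none below, beside 11.2% and 16.3% of all genes, a count too small to set the group apart. Of these 2, Cbs passed the filter only through its KXH level, so the count is partly set by the filter. Bhmt, at 0.762 RPKM with KXH and 1.31 RPKM with water, passed only through its water level.

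Methylthioadenosine, the by-product of both aminopropyl transfers, is recycled to methionine by a salvage route of which 5 genes were measured. Of these, 4 had ratios above 1, beside 45.0% of all genes. The 4 were Apip (1.18), Mri1 (1.12), Adi1 (1.09) and Mtap (1.05), with Enoph1 at 0.930, and every one of these 5 intervals included 1. At this depth, then, a difference of the salvage genes was not detectable.

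For ornithine and arginine, the 5 genes averaging at least 1 RPKM had ratios below 1, beside 55.0% of all genes, with 1 inside each interval. This held only within that filter. Aldh18a1, which starts proline and ornithine synthesis from glutamate, averaged just under 1 RPKM and had 54 reads with KXH and 37 with water, a ratio of 1.57 (1.01 to 2.45), and Azin2 had a ratio of 1.16 with 1 in its interval. The mitochondrial arginase gene Arg2 had 29 reads with KXH and 43 with water. Pycr1, a proline synthesis enzyme, had 28 and 45 reads in the same order. Slc25a15, the mitochondrial ornithine carrier, had a ratio of 0.946 and the creatine synthesis enzyme Gatm one of 0.979.

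Transport genes went both ways. Slc7a1, the cationic amino acid transporter that carries arginine and ornithine, was at 5.11 RPKM with KXH (475 reads) and 3.58 RPKM with water (358 reads), a ratio of 1.43 (1.24 to 1.64). Atp13a2, the lysosomal polyamine exporter, was at 6.98 RPKM with KXH and 8.62 RPKM with water, 1.23-fold lower (1.08 to 1.42). Cav1, the caveolin also abundant in endothelium, was 1.07-fold lower (1.03 to 1.11). Slc7a2 had a ratio of 0.809 with 1 in its interval.

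Spermidine is the donor for hypusine on eIF5A, and its genes lay close to the water level. Eif5a was at 178 RPKM with KXH and 173 RPKM with water, a ratio of 1.03 (0.981 to 1.08). Dhps and Dohh, the enzymes that build hypusine, had ratios of 1.13 and 0.973, and Eif5a2 one of 1.01, each with 1 in its interval. Of other polyamine enzymes, Sat2, a relative of Sat1 in sequence, had a ratio of 1.18 (0.980 to 1.43). The amine oxidase gene Aoc3 and the aldehyde dehydrogenase gene Aldh9a1 had ratios of 0.976 and 0.982, both with 1 in the interval.

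Myc, a transcription factor known to bind and activate Odc1, was at 3.56 RPKM with KXH (117 reads) and 2.35 RPKM with water (83 reads), a ratio of 1.51 (1.13 to 2.03). The Max partners Mxi1 and Mnt, which compete with Myc, were 1.21-fold (1.101 to 1.33) and 1.16-fold (1.01 to 1.33) lower. Mxd1, also of this network, had a ratio of 1.03 (0.874 to 1.22). Max had a ratio of 0.994 and Nfe2l2 one of 0.949, both with 1 in the interval. Of the 7 genes of this group, 1 had an interval above 1 and 2 below, beside 11.2% and 16.3% of all genes. These counts are too small to set the group apart. Mycn had 34 reads with KXH and 50 with water, with 1 in its interval.

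**Figure D5:**
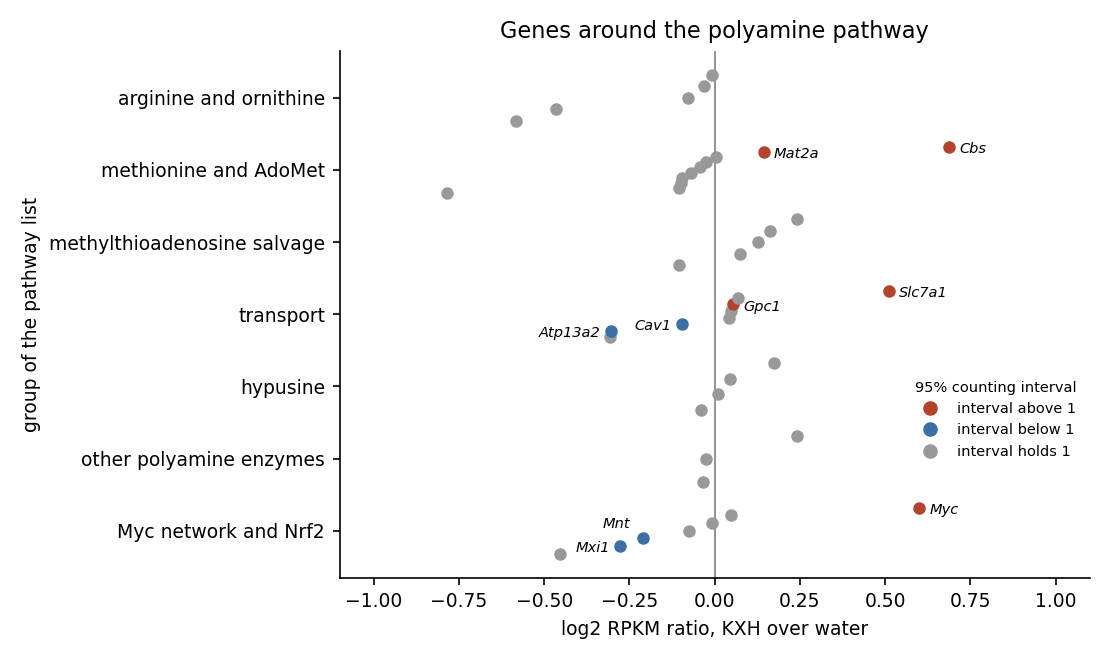
Log2 ratio of KXH over water for the 42 measured genes around the polyamine pathway, in 7 groups, coloured by whether the 95% counting interval of the ratio lies above 1, below 1 or holds 1. The 9 named points have intervals without 1, and Aldh18a1 of the ornithine group, with a ratio of 1.57, is not drawn because it averaged under 1 RPKM.

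The genes whose ratio was closest to that of Amd1, among the 7824 genes averaging at least 5 RPKM with 200 reads or more, were Stard10, Stard4, Cd68, Adcy1 and Cd36. With a single library per group this likeness rests on 1 ratio for each gene. Stard10 was 1.78-fold lower (1.402 to 2.26), Stard4 1.74-fold (1.42 to 2.13) and Adcy1 1.71-fold (1.53 to 1.92). Stard10 and Stard4 encode lipid transfer proteins, and Adcy1 an adenylyl cyclase. Cd68, a lysosomal macrophage protein, was 1.74-fold lower (1.34 to 2.27) and Cd36 1.83-fold (1.78 to 1.88). Reads covered 83.4% of the listed length of Cd36 with KXH and 99.4% with water, so its covered part differed between the libraries.

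Marker genes of cell types also differed between the libraries. Their counts of lower and higher genes stand beside 55.0% of all genes with a ratio below 1 and 45.0% above 1. The summed level of the 7 cardiomyocyte markers was 30228 RPKM with KXH and 28288 RPKM with water, a ratio of 1.07. Single markers went both ways, with 4 higher and 3 lower. Summed levels were lower for the 8 macrophage markers, at 217 RPKM with KXH and 273 RPKM with water, with 6 of 8 lower and Lyz2 the most abundant at 147.8 and 159 RPKM in that order. Much of the gap came from Spp1, at 4.11 RPKM with KXH and 31.4 RPKM with water, and Gpnmb, at 12.5 and 24.7 RPKM in the same order. Cd163 (1.05), Mrc1 (1.03) and Csf1r (0.951) had ratios near 1, with 1 in each interval. All 7 endothelial markers were lower, with sums of 406 RPKM with KXH and 463 RPKM with water, and so were all 5 smooth muscle and pericyte markers with a mean of at least 1 RPKM, with sums over 6 of 259 and 303 RPKM in the same order. Erythroid markers summed to 2274 RPKM with KXH and 3358 RPKM with water, with 6 of 6 lower. Hbb made up nearly all of both sums, at 2234 RPKM with KXH and 3283 RPKM with water. LOC287167 had 0 reads with KXH and 101 with water, while the ratios of Ahsp (0.991) and Hba1 (0.778) had 1 in their intervals. Fibroblast markers were higher, at 704 RPKM with KXH and 621 RPKM with water, with 5 of 6 higher. Of the 6 lymphocyte markers, 1 averaged at least 1 RPKM (Nkg7, with 13 reads with KXH and 38 with water), and Cd79a had none. Their sums were 1.72 RPKM with KXH and 3.99 RPKM with water. The 6 skeletal muscle markers summed to 2725 RPKM with KXH and 2207 RPKM with water. Nearly all of this was Ckm, at 1144 RPKM with KXH and 1183 RPKM with water, and Acta1, at 1578 RPKM with KXH and 1022 RPKM with water (1.55-fold higher, 1.52 to 1.57), both of which heart muscle also expresses. Myh4 had no reads, and Myh1 had 1 read with KXH and 2 with water. In bulk tissue, fewer cells of a type and less RNA per cell cannot be told apart, and the part of these shifts in the Amd1 and Smox ratios was not tested.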

How the data were processed

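Total RNA of rat myocardium was made into libraries with an Illumina TruSeq RNA kit, per the labels' protocols, and Bowtie 0.12.2 and rn6 are named in the submitters' processing notes, with no role given. The counting program, annotation and use of strand were not given in the sources used here, so overlapping antisense reads cannot be told apart. The deposited tables give per gene a whole count of unique reads, and the authors' RPKM equals that count per kilobase of listed length per 1000000 reads of the table's total (checked to a relative difference of 1e-09). The authors' coverage value, the share of the listed length with reads, served only as a description. Genes missing from a table count as 0 reads. The lncRNA tables gave only totals for a rescaling.

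The members and lists were chosen with earlier results of these data known. Ratios are of RPKM without a pseudocount. Each has a 95% interval from the exact binomial (Clopper-Pearson) limits of the KXH library's part of the gene's reads, given both totals, and ratios between members within a library have exact conditional intervals. All intervals cover counting error only. Without molecular identifiers PCR copies count as reads, so the intervals can be too narrow even for counting error. Of the genes around the pathway, up to 4 per group with the ratio farthest from 1 are named, the 5 genes closest to Amd1 in ratio, and up to 2 abundant markers per cell type with the highest RPKM. Markers named for few or no reads, for their part in a sum or for an interval including 1 were added after their values were seen. So were Mtap, Aldh18a1, Azin2, Mxd1, Max and Nfe2l2. The interval computation was tested on simulated counts. Scalings, pseudocounts, folds, filters and a length trend were tried as alternatives. Computations ran in Python 3.11.15 (scipy 1.17.1, with pandas 2.3.3 and numpy 2.4.6), and figures in matplotlib 3.10.9.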

Additional observations from a re-analysis of the deposited data

How the results depend on the processing

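The Amd1 ratio stayed between 0.565 and 0.573 over other library scalings, removal of a trend on gene length (Spearman coefficient across 7824 genes of -0.20) and pseudocounts of 1 and 0.1 RPKM. None of the 70 alternative values of the 10 genes left the counting interval of the ratio as reported, and no gene whose interval lay off 1 changed direction. The other library scalings moved every log2 ratio by only 0.0024 to 0.0197, so they could change little. Intervals were not recomputed under the alternatives, so the counts of intervals off 1 were not checked. Paox and Sat1, whose intervals include 1, went to either side of 1. The number of genes at least 1.2-fold higher was 2 with median-of-ratios size factors, with a trimmed mean of log ratios, with the total of both tables and with the total without the 20 most abundant genes, in each case because Sms passed the limit. It was also 2 at a fold of 1.1, and 0 with members of at least 5 RPKM, which leaves out Srm. The number at least 1.2-fold lower was 1 at a fold of 1.5. The median log2 ratio of the 10 genes lay between -0.02 and 0.02 and that of the genes around the pathway between -0.03 and -0.01. No gene symbol had several rows, so summing rows changed nothing.

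No paired analysis was possible because each group has 1 library. No library can be left out either, and no difference has a replicate check. Depth limits Srm most, with 44 reads in all.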
